A study of Mus musculus with 6 samples.

Results

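The type I interferon response was examined here through 10 of its antiviral effector genes, Isg15, Usp18, Mx1, Mx2, Rsad2, Ifi44, Bst2, Cmpk2, Ifi27l2a and Xaf1, in the kidneys of lupus-prone mice. Every probe on the array whose annotated gene name is 1 of these 10 was taken, which gave 17 probes out of 56605, and 10 genes out of 36870 gene names. The rule reads only the gene names. TA was performed by hybridizing Cy3-labelled RNA from whole kidneys of 3 MRL mice (MRL/MpJ) and 3 LPR mice (MRL/MpJ-Fas lpr/lpr), with 1 mouse per array. All 6 mice were untreated females of 6 months of age kept under specific pathogen-free conditions. LPR mice carry the lpr mutation of Fas, a death receptor, in every tissue and develop lupus nephritis, and MRL mice share their background and served as the control. The comparison asks which of these genes differ between the diseased and the control kidney.

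Type I interferons, the IFN-alpha family and IFN-beta, bind the receptor chains IFNAR1 and IFNAR2, and the kinases JAK1 and TYK2 then activate the transcription factor complex ISGF3, which holds STAT2 and IRF9 and binds the interferon-stimulated response element (ISRE) in the promoters of the effector genes. IFN-gamma signals through its own receptor to the gamma-activated site (GAS) in its target promoters, and many effector genes answer to both kinds of interferon. A raised interferon-stimulated gene signature in blood and kidney is a known feature of lupus.

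The promoters of 6 of the 10 genes (Isg15, Bst2, Rsad2, Cmpk2, Ifi44 and Xaf1) were found in RefSeq for the mouse build GRCm38.p6, as windows of 300 bases around the start of transcription. The ISRE core, searched on both strands as GAAA, any 2 bases and GAAA again, occurred in the windows of Isg15, Bst2 and Rsad2, 3 of the 6, and in 3.44% of the 32851 promoter windows of all genes. The GAS sequence TTCNNNGAA occurred in 1 of the 6, that of Bst2, and in 8.3% of all windows. The 200 bases before the start are shown for the 3 genes with an ISRE match, because Isg15 and Bst2 rose in LPR mice and Rsad2 did not pass. Capitals mark the matches to the ISRE core, and each sequence runs 5′ to 3′ on the strand of its gene.
Isg15: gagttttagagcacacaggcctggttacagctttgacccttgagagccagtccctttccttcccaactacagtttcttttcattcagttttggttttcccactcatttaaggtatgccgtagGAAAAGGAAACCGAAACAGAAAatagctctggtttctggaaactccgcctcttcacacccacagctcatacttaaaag
Bst2: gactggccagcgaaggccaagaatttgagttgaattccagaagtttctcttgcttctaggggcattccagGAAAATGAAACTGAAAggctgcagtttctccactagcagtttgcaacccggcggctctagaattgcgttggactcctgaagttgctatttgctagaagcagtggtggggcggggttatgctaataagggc
Rsad2: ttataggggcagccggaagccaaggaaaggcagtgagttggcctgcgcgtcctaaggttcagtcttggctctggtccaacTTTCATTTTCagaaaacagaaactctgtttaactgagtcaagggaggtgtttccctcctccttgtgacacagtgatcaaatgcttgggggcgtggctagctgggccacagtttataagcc
The Isg15 stretch is chr4:156200819-156201018 on the minus strand, and its 3 overlapping matches lie between bases -78 and -57 from the start. The Bst2 stretch is chr8:71537473-71537672 on the minus strand, with 2 overlapping matches between -130 and -115, and its GAS match between -136 and -128 shares bases with the first of them. The Rsad2 stretch is chr12:26456453-26456652 on the minus strand, with its match between -120 and -111 on the opposite strand. A match is a description of the letters and not a measured site.

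Between 69.6% and 73.5% of the spots per array were well above background, and no spot was saturated. The first number of the position of an array on the slide is called the slide column here. Whether it counts columns or rows was not settled. The 75th percentile of the intensities was 942 in LPR 1 and 706 to 759 on the other 5 arrays. All values below are log2 signals with the 75th percentile of the same array subtracted, so that 0 is the level of the 75th percentile and a log2 change is LPR minus MRL. A probe was tested where 3 or more arrays showed it well above background, which held for 15 of the 17 probes, and 12 of them were above it on all 6 arrays. The brightest tested probe stands for a gene, and a gene passed if its adjusted p in limma, over all 39924 tested probes, was under 0.05. Probe coordinates are those of the array files on mm9, for which no exon annotation was used here. The values describe only these 6 mice, and in whole kidney, a change in how many cells of a type are present and a change in RNA per cell cannot be told apart. The brighter Fas probe differed by -0.47 on the log2 scale with an adjusted p of 0.234. The other was above background in 0 of 3 MRL mice and 3 of 3 LPR mice. At a bound of at least 1.47-fold, it was higher in LPR mice (adjusted p = 0.0338). This probe passed the filter only through the LPR mice and had to differ, so its value is a description. The lpr mutation cannot be checked with these probes.

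Of the 10 genes, 6 rose in LPR mice, 0 fell and 4 did not pass, against 7.12% of 25805 genes tested that rose and 5.47% that fell. At an unadjusted p under 0.05 in limma, 7 were higher and 0 were lower. The 6 genes that rose were Mx1, Bst2, Isg15, Xaf1, Usp18 and Mx2, and the 4 that did not pass were Cmpk2, Ifi44, Ifi27l2a and Rsad2. The median log2 change of the 10 genes was 0.78, and that of all tested genes was -0.12. The rise was at least 2-fold for 4 of the 10, as for 4.96% of all genes, and the fitted changes ran from -0.02 for Rsad2 to 3.21 for Mx1, whose probe was above background in 1 of the 3 MRL mice. For 7 of the 10, the 3 LPR mice lay above the 3 MRL mice, against 11.7% of all genes. The counts of rises include Mx1, whose probe needed the LPR mice to pass the filter. With the filter on all 6 arrays, Mx1 was not tested and 5 of the genes rose. Over the whole array 51.4% of the calls were higher in LPR, and this share was 36.3% with normexp background correction.

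**Figure D1:**
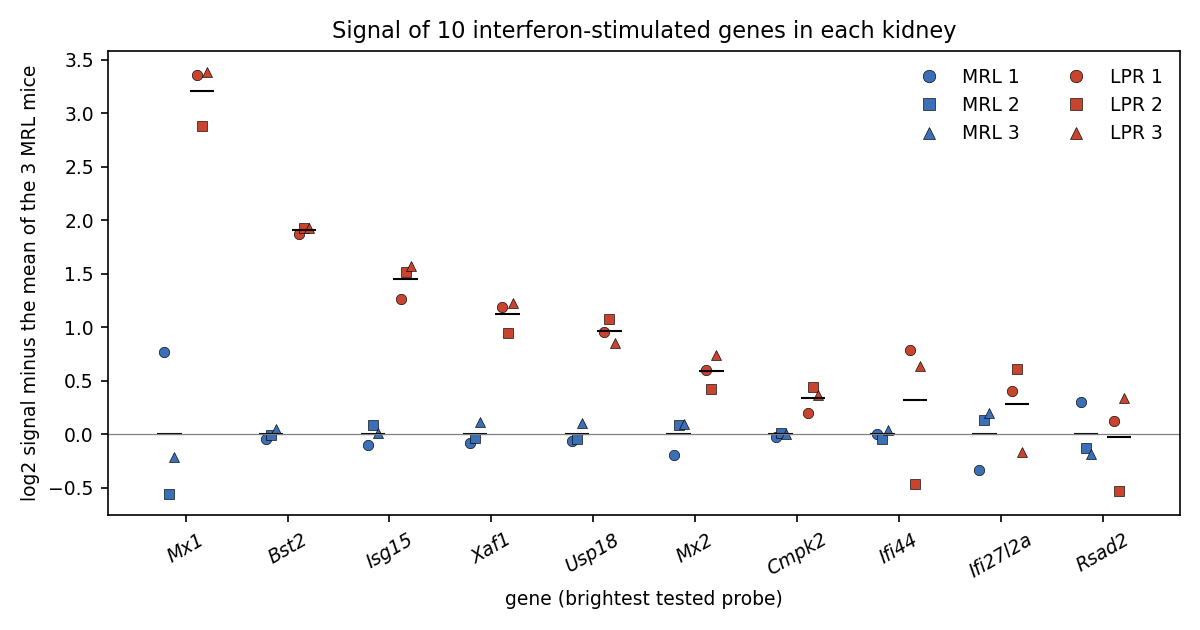
The log2 signal of each of the 10 genes (brightest tested probe) in each mouse, minus the mean of the 3 MRL mice, with the 3 MRL mice in blue, the 3 LPR mice in red and group means as black lines. From Mx1 to Cmpk2 the LPR mice lie above the MRL mice, with means from 3.21 to 0.34, and for Ifi44, Ifi27l2a and Rsad2 the groups overlap.

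Isg15 and Usp18 act on the same modification of proteins. Isg15 encodes the ubiquitin-like modifier ISG15, which is attached to proteins after interferon exposure, and Usp18 encodes the protease that removes ISG15 and also blocks signalling at IFNAR2. Isg15 (A_55_P2103698, chr4:155573649-155573708, minus strand) gave log2 signals of 0.22, 0.41 and 0.34 in MRL 1 to MRL 3 and of 1.59, 1.84 and 1.90 in LPR 1 to LPR 3. LPR 1 was the lowest LPR mouse and was still far above every MRL mouse. Isg15 rose by a log2 change of 1.45 (standard error 0.12), or 2.74-fold, with an adjusted p of 0.000476. Usp18 (A_55_P2114953, chr6:121220874-121220933, plus strand) gave log2 signals of -2.01, -1.98 and -1.84 in the MRL mice and of -0.99, -0.86 and -1.09 in the LPR mice. The LPR mice were close to each other and did not overlap with the MRL mice. Usp18 rose by a log2 change of 0.97 (standard error 0.11), or 1.95-fold, with an adjusted p of 0.00203. For the other enzymes of ISG15 conjugation, the E1 enzyme Uba7 rose by 1.42 and the E2 enzyme Ube2l6 by 1.02 on the log2 scale, with adjusted p of 0.000265 and 0.0409. The ligase Herc6 had a log2 change of 0.62 (adjusted p = 0.184) and Trim25, which also acts as an ISG15 ligase, of -0.36 (adjusted p = 0.138), and neither passed.

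Mx1 and Mx2 encode dynamin-like GTPases that trap viral components. RefSeq lists both as transcribed pseudogenes in the C57BL/6J reference genome, and the allele of the MRL strain was not measured. The brighter Mx1 probe (A_55_P2118441, chr16:97668644-97668703, minus strand) gave log2 signals of -5.11, -6.44 and -6.09 in the MRL mice and of -2.52, -2.996 and -2.49 in the LPR mice. It was well above background in 1 of the 3 MRL mice and in 3 of the 3 LPR mice, and the groups lay far apart. It rose by 3.21 on the log2 scale (standard error 0.34) with an adjusted p of 0.00137. The size of this change depended on how the background was removed. With normexp it was 1.06 (adjusted p = 3.84e-05), below the 1.88 of Bst2 and the 1.41 of Isg15, so that Mx1 has no settled rank among the 10 genes. The other Mx1 probe (A_55_P2923951) is listed from 97668644 to 97668668, within the interval of the first, and was above background in 0 of 3 MRL mice and 3 of 3 LPR mice. LPR mice exceeded MRL mice in it by at least 1.35-fold with an adjusted p of 6.36e-05, and with measured means of -7.66 in MRL and -5.52 in LPR.

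Mx2 lies on the same chromosome with 2 genes, Fam3b and Gm9242, between it and Mx1 in RefSeq, and it changed far less. Its brighter probe (A_51_P514085, chr16:97782327-97782386, plus strand) gave log2 signals of -2.65, -2.37 and -2.36 in the MRL mice and of -1.86, -2.04 and -1.72 in the LPR mice. The groups did not overlap, with LPR 2 the nearest to the MRL mice. Mx2 rose by a log2 change of 0.59 (standard error 0.14), with an adjusted p of 0.035. This call was lost without any 1 of MRL 1, MRL 2, MRL 3, LPR 1 or LPR 3, with log2 changes of 0.49 to 0.64 and adjusted p of 0.0744 to 0.107. It was also lost with the slide column in the fit (0.60, adjusted p = 0.172) and with the replicate number as a block (0.59, adjusted p = 0.0689). The other Mx2 probe (A_55_P1955103, chr16:97780076-97780135) was above background on none of the 6 arrays and was not tested.

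Bst2 encodes tetherin, a membrane protein that holds budding virions at the cell surface, and it had the smallest error of the genes that rose. The log2 signals of its probe (A_51_P169693, chr8:74058603-74058662, minus strand) were 0.67, 0.71 and 0.77 in the MRL mice and 2.59, 2.65 and 2.64 in the LPR mice. Within each group the 3 mice were nearly level, and the gap between the groups was many times their spread. Bst2 rose by a log2 change of 1.91 (standard error 0.09), or 3.75-fold, with an adjusted p of 4.57e-05. Under all 21 alternative settings that gave a value, its log2 change stayed between 1.87 and 1.94 and passed.

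Xaf1 encodes an interferon-induced protein that binds the apoptosis inhibitor XIAP, and 3 probes measured it. The brightest (A_55_P1966833, chr11:72122169-72122228, plus strand) gave log2 signals of -1.70, -1.65 and -1.50 in the MRL mice and of -0.43, -0.66 and -0.39 in the LPR mice. LPR 2 was the lowest LPR mouse, and the groups did not overlap. Xaf1 rose by a log2 change of 1.12 (standard error 0.12), or 2.18-fold, with an adjusted p of 0.00146. The second probe (A_55_P1966838, chr11:72127175-72127234) was above background in 0 of 3 MRL mice and 3 of 3 LPR mice, and LPR mice exceeded MRL mice by at least 2.15-fold with an adjusted p of 0.0188 and measured means of -5.80 in MRL and -4.70 in LPR. This bound equals the fitted fold, since the MRL signals of the probe were already above the dimmest signal that counted as above background on their arrays. The third (A_55_P2745771, chr11:72120327-72120386) was above background on no array and was not tested.

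Rsad2 and Cmpk2 are neighbours on chromosome 12 with no gene between them and are read from opposite strands. Rsad2 encodes viperin, which turns CTP into an antiviral nucleotide, and Cmpk2 encodes a mitochondrial kinase that supplies CTP. The brighter Rsad2 probe (A_52_P670026, chr12:27127859-27127918, minus strand) gave log2 signals of 0.37, -0.06 and -0.11 in the MRL mice and of 0.19, -0.47 and 0.40 in the LPR mice. The mice of both groups were mixed, with LPR 2 lowest and LPR 3 highest. Its log2 change was -0.02 with a 95% interval of -0.61 to 0.57 (adjusted p = 0.964). With 3 mice per group, a rise or a fall within this interval remains compatible with the values. The sign of the log2 change turned when LPR 2 or MRL 1 was left out (0.23 and 0.13). The second Rsad2 probe (A_51_P505132), whose 60 bases are placed across chr12:27135585-27138886, had a log2 change of -0.42 with a 95% interval of -0.93 to 0.10 and did not pass (adjusted p = 0.242). Cmpk2 (A_55_P2830660, chr12:27164134-27164193, plus strand) gave log2 signals of -0.65, -0.61 and -0.62 in the MRL mice and of -0.43, -0.18 and -0.26 in the LPR mice. The 3 LPR mice lay above the 3 MRL mice, but the step was small. The log2 change of Cmpk2 was 0.34 (standard error 0.11) and did not pass (adjusted p = 0.0882), while it passed with normexp (0.30, adjusted p = 0.0476).

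Ifi44 encodes a cytoplasmic interferon-induced protein, and LPR 2 stood apart from the other LPR mice in it. Its brighter probe (A_51_P487690, chr3:151394035-151394094, minus strand) gave log2 signals of -1.03, -1.07 and -0.98 in the MRL mice and of -0.24, -1.49 and -0.39 in the LPR mice. LPR 1 and LPR 3 were above every MRL mouse, and LPR 2 was below every one. The log2 change of 0.32 had a standard error of 0.32 and did not pass (adjusted p = 0.524), but without LPR 2 it was 0.71 and passed (adjusted p = 0.0141). The second Ifi44 probe (A_52_P550858, chr3:151409005-151409064) did not show LPR 2 as low, with log2 signals of -4.43, -5.33 and -4.76 in the MRL mice and of -4.62, -4.28 and -4.49 in the LPR mice. Here LPR 2 was the highest LPR mouse and the groups overlapped, so the 2 probes disagree on this mouse. This second probe had a log2 change of 0.37 (standard error 0.23) and did not pass (adjusted p = 0.319). Its accession is that of another transcript, which RefSeq did not match.

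Ifi27l2a encodes a small mitochondrial membrane protein of the IFI27 family. The brighter probe (A_52_P90363, chr12:104680394-104680453, minus strand) gave log2 signals of 3.11, 3.58 and 3.65 in the MRL mice and of 3.86, 4.06 and 3.28 in the LPR mice. LPR 1 and LPR 2 were above the MRL mice, and LPR 3 fell among them. The log2 change of 0.29 had a standard error of 0.24 and a 95% interval of -0.27 to 0.85, and it did not pass (adjusted p = 0.444). The second probe (A_55_P2496934, chr12:104672083-104672142) had a log2 change of 0.11 (adjusted p = 0.731). Among the paralogs of these genes, Ifi27, which is next to Ifi27l2a in RefSeq, rose by 0.84 on the log2 scale (adjusted p = 0.00371), and Ifi44l, next to Ifi44, rose by 0.69 (adjusted p = 0.0148). Ifi27l2b had a log2 change of 0.82 (adjusted p = 0.0707) and Cmpk1, a cytosolic kinase, of -0.13 (adjusted p = 0.438). Whether probes of these similar genes share signal was not tested.

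**Figure D2:**
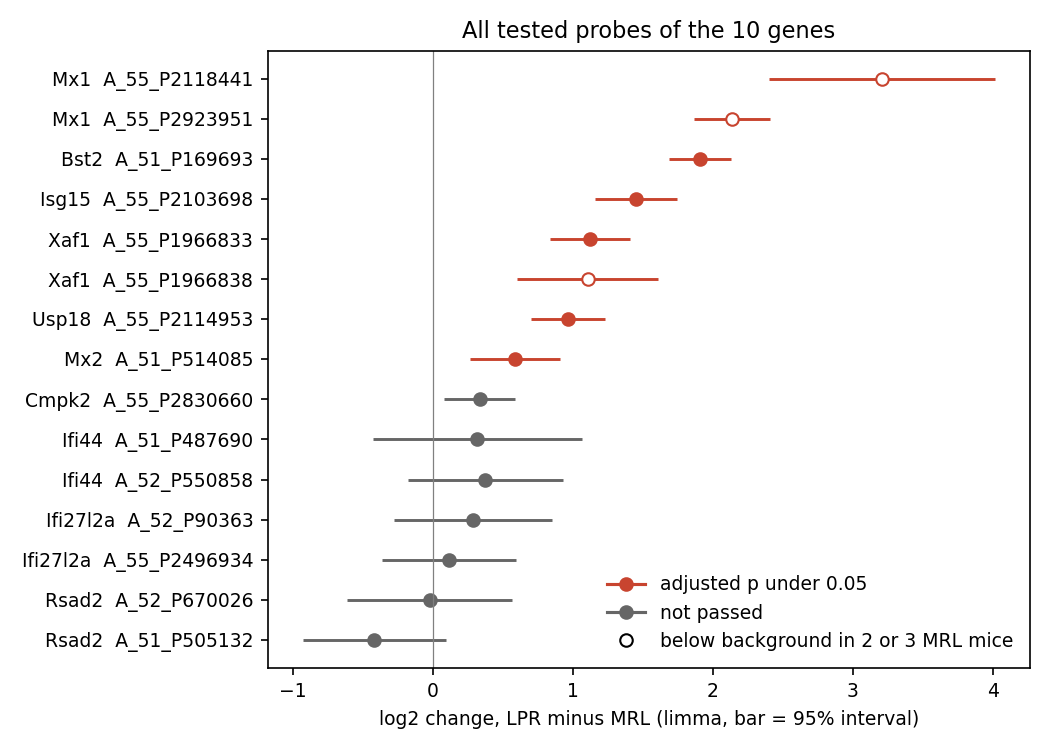
The log2 change, LPR minus MRL, of the 15 tested probes of the 10 genes with its 95% interval from limma, in red where the adjusted p was under 0.05. The 8 red probes belong to 6 genes and lie between 0.59 and 3.21, and the open circles mark the 3 probes below background in 2 or 3 MRL mice, for which the plotted change is the fitted one.

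Of the 15 tested probes, 8 rose and 0 fell in limma, against 6.53% and 6.17% of all tested probes. The second probes of Mx1 and Xaf1 passed the filter only through the LPR mice, so they had to differ and are given only as a description. The brighter Mx1 probe, above background in 1 of 3 MRL mice, also needed the LPR mice to pass the filter. Of the 12 member probes above background on all 6 arrays, 5 rose when the filter asked for all 6. The genes with 2 tested probes were Mx1, Xaf1, Rsad2, Ifi44 and Ifi27l2a, and in each of these both probes had the same outcome in the test.

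The order of the fitted log2 changes from Mx1 over Bst2 and Isg15 to Xaf1, Usp18, Mx2, Cmpk2, Ifi44, Ifi27l2a and Rsad2 was only partly separated by the mice. The difference between neighbours was taken within each mouse, and for Bst2 over Isg15 (0.46, standard error 0.09) it did not overlap between the groups. It did not overlap for Mx1 over Bst2 either (1.30), but this rests on a probe near background in the MRL mice, and with normexp the order of Mx1 and Bst2 turned. For the other 7 neighbouring pairs it overlapped, from 0.02 for Cmpk2 over Ifi44 to 0.38 for Usp18 over Mx2. Averaged over the 10 genes, the signals minus the mean of the MRL mice were 1.08 in LPR 1, 0.88 in LPR 2 and 1.09 in LPR 3, and -0.05 to 0.02 in the MRL mice. These averages include Mx1, the highest gene in each LPR mouse with 3.36, 2.88 and 3.39, whose size depended on how the background was removed. LPR 2 was the lowest LPR mouse in 5 of the 10 genes and the highest in 4, so it was not low throughout. The median SD of the 10 genes was 0.10 over the MRL mice and 0.16 over the LPR mice, and over all tested genes it was 0.13 and 0.18. The SD was larger in LPR mice for 7 of the 10 genes and for 62.0% of all genes.

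LPR 1 shared slide column 1 with the 3 MRL mice, and LPR 2 and LPR 3 were in column 2. Within column 1, LPR 1 exceeded the mean of the MRL mice by 3.36 for Mx1, 1.87 for Bst2, 1.27 for Isg15, 1.19 for Xaf1, 0.95 for Usp18 and 0.60 for Mx2 on the log2 scale. These are also the log2 changes with the slide column in the fit, where Mx1, Bst2, Isg15, Xaf1 and Usp18 passed with adjusted p of 0.00218 to 0.0344. In that fit the change rests on LPR 1 alone against the MRL mice, and LPR 1 is assumed to vary like the other mice. The differences within column 1 were 0.20 for Cmpk2, 0.79 for Ifi44, 0.41 for Ifi27l2a and 0.13 for Rsad2, and none of these 4 passed in that fit.

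**Figure D3:**
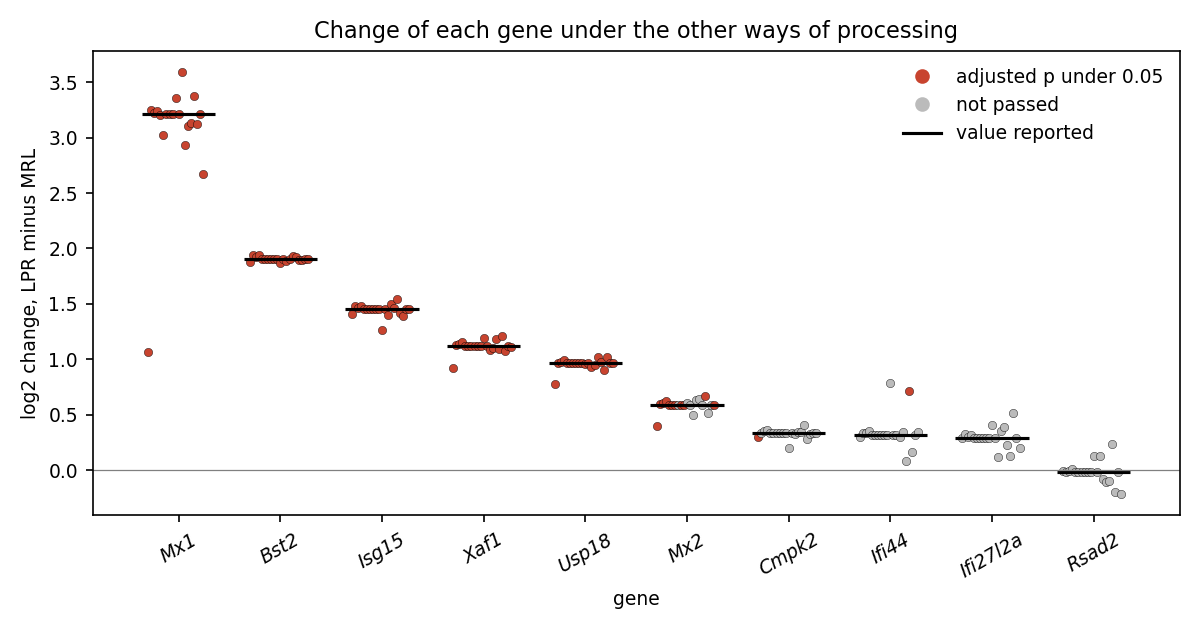
The log2 change of each of the 10 genes under the other ways of processing (points, red where the adjusted p was under 0.05) beside the reported value (black line). Bst2, Isg15, Xaf1, Usp18 and Mx1 stayed red throughout, although the 1 low point of Mx1 (normexp) was 1.06. Mx2 changed colour in 9 of the settings shown, and the methods' test without adjustment is left out of the figure.

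The 10 genes were set beside the rest of the interferon pathway, in lists of 91 tested genes of which 58 rose, 0 fell and 33 did not pass in limma (at an unadjusted p under 0.05, 63 were higher and 3 were lower). These counts take the brightest probe of a gene. The rises include Ifng and Oas3, whose probes were above background in 0 of 3 MRL mice and needed the LPR mice to pass the filter. By any tested probe 60 rose, and for 13 of the 91 the probes of the gene differed in outcome. Of 11 tested interferon ligands 1 was called higher, Ifng, the gene of IFN-gamma made by T and NK cells. It was above background in 0 of 3 MRL mice and 3 of 3 LPR mice, and LPR mice exceeded MRL mice by at least 16.4-fold with an adjusted p of 0.000277 and measured means of -6.98 and -1.91. Like the second Mx1 and Xaf1 probes, Ifng passed the filter only through the LPR mice and had to differ, so this is a description. The tested IFN-alpha genes had log2 changes from -0.47 for Ifna15 (adjusted p = 0.147) to 0.01 for Ifna2 (adjusted p = 0.989). Their near-identical copies may share signal. Their probes were dim, with MRL means from -5.18 for Ifna2 to -3.76 for Ifna14, so these values say little about IFN-alpha RNA. Ifnb1, the gene of IFN-beta, was above background in 1 of the 6 mice, an LPR mouse, and was not tested, as were Ifna4, Ifna7, Ifna12, Ifna13, Ifna16 and Ifne.

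Among the 6 receptor genes 1 rose, the IFN-gamma receptor chain Ifngr2, by 0.62 on the log2 scale (adjusted p = 0.00883). The type I receptor genes Ifnar1 and Ifnar2 had log2 changes of -0.08 (adjusted p = 0.669) and 0.20 (adjusted p = 0.223), but a dimmer Ifnar2 probe (A_51_P338924) rose by 0.56 (adjusted p = 0.0157). Ifngr1 had a log2 change of 0.47 (adjusted p = 0.0569), Il10rb of 0.17 (adjusted p = 0.316) and Ifnlr1 of -0.08 (adjusted p = 0.685). Of the 6 kinases and ISGF3 genes 3 rose, and none of the kinases passed. Irf9 rose by 1.21 on the log2 scale (adjusted p = 0.000621) and Stat2 by 0.59 (adjusted p = 0.0223), while a dimmer Stat2 probe (A_66_P102138) gave -0.05 (adjusted p = 0.889). The log2 changes of the kinases were -0.09 for Jak1 (adjusted p = 0.681), 0.19 for Jak2 (adjusted p = 0.296) and 0.52 for Tyk2 (adjusted p = 0.1).

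Of 14 genes that sense nucleic acids or act further along in the induction of interferon, 8 rose by their brightest probe. For 4 of the 14, the probes of the gene differed in outcome. The largest rise was that of Tmem173, the adaptor STING, by 1.80 on the log2 scale (adjusted p = 0.000157). In the same list, Tbk1, the kinase below STING, had a log2 change of 0.06 (adjusted p = 0.843) and Mavs, the mitochondrial adaptor, of -0.18 (adjusted p = 0.285). Of 30 other interferon-stimulated genes 26 rose, among them Oas3, which passed the filter only through the LPR mice. The median log2 change of the 30 genes was 0.93. The nucleic acid sensor Zbp1 led these genes with 2.86 (adjusted p = 9.73e-05), whereas Ifit2 (-0.06, adjusted p = 0.878) and Samd9l (-0.54, adjusted p = 0.0847) did not pass. The 16 targets typical of IFN-gamma moved further, with 15 rising and a median log2 change of 2.86. The chemokine Cxcl9 had a rise of 5.96 (adjusted p = 2.53e-05) by its brightest probe. Gbp5 had a log2 change of -0.05 (adjusted p = 0.83) by its brightest probe, whereas its other probe (A_52_P327664) rose by 2.13 (adjusted p = 7.02e-05), so its probes disagree. The difference between the medians of the lists was not tested, and these genes answer in part to both kinds of interferon.

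**Figure D4:**
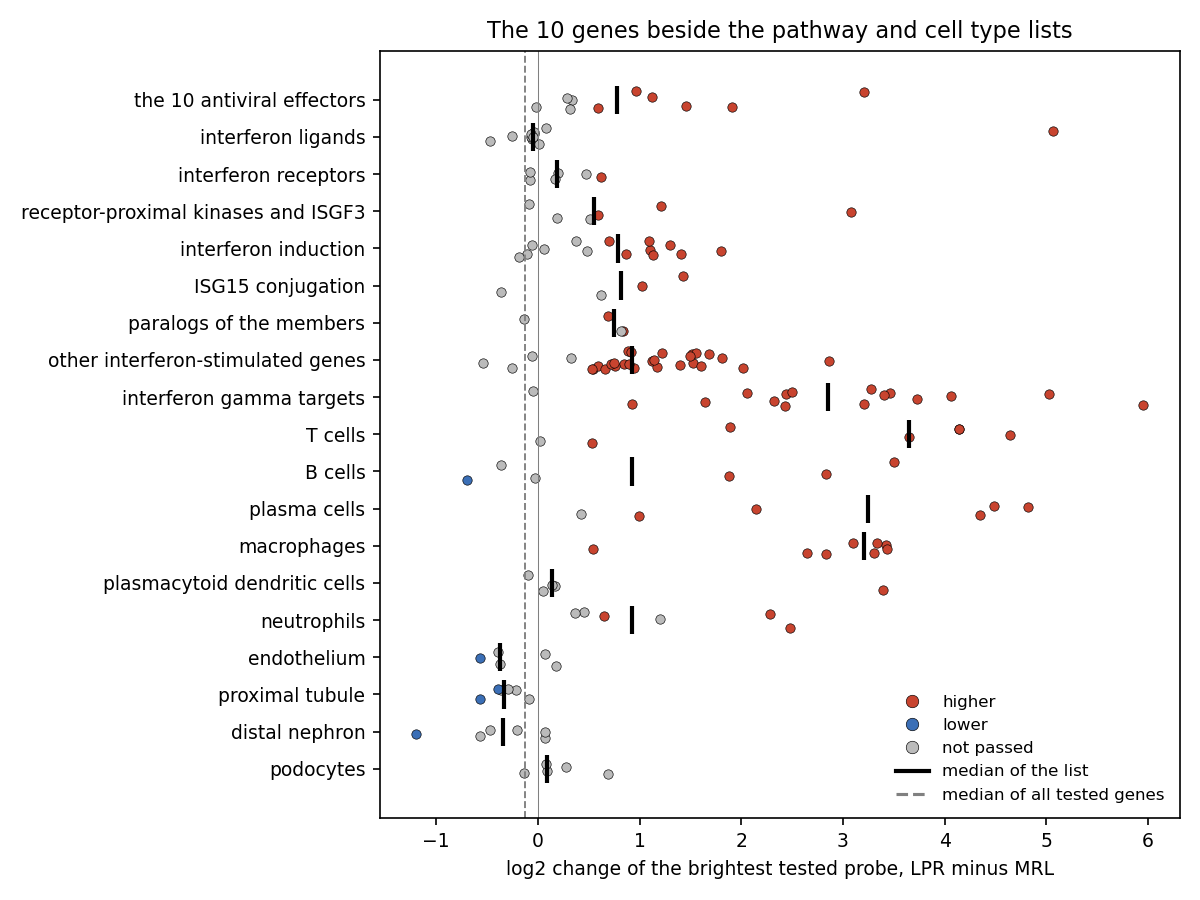
The log2 change, LPR minus MRL, of every tested gene (1 point, brightest tested probe) in the 10 antiviral effectors, the 8 pathway lists and the 10 cell type lists, coloured by its outcome in limma, with the median of each list as a black bar and that of all tested genes as a dashed line. The medians are 0.78 for the 10 genes, 0.93 for the other interferon-stimulated genes and 2.86 for the IFN-gamma targets, and the Ifng point is the fitted value of a gene below background in the MRL mice.

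Markers of leukocytes were compared between the groups in the same way. All 8 tested macrophage markers rose, and their summed linear signal (relative to the 75th percentile) was 16.7 to 20.9 in the MRL mice and 61.8 to 69.4 in the LPR mice. Of these, Csf1r, the receptor of a macrophage growth factor, rose by 0.55 (0.18, not passing, by a dimmer probe) and C1qc, a complement subunit, by 3.43 on the log2 scale. For T cells 6 of 7 markers rose, with sums of 2.57 to 3.02 in the MRL mice and of 11.01 to 12.9 in the LPR mice, among them Cd3e by 1.89 and Cd4 by 0.53 on the log2 scale. The 2 dimmer Cd4 probes gave a log2 change of 0.25 that did not pass and a rise of at least 1.57-fold. The probe with this rise was above background in 0 of 3 MRL mice and had to differ, so it is a description. Plasma cell markers rose in 5 of 6, with sums of 31.6 to 46.3 in the MRL mice and of 78.6 to 149 in the LPR mice. Among them were a rise of 4.49 for Jchain and a log2 change of 0.42 for Xbp1 that did not pass. The 5 include Tnfrsf17, which was above background in 0 of 3 MRL mice and passed the filter only through the LPR mice. Of 6 B cell markers 3 rose and 1 fell, with sums of 1.55 to 1.67 in MRL and of 4.27 to 5.52 in LPR. Among them Cd79b rose by 2.83. The brightest Cd22 probe had a log2 change of -0.03 that did not pass, while a dimmer one (A_51_P448140) rose by 3.47 (adjusted p = 0.00016). The gene that fell was Ms4a1, by -0.70 (adjusted p = 0.0497) for its brightest probe, but its other probe (A_55_P2802151) rose by 4.99 (adjusted p = 0.00281), so the probes of these 2 B cell markers disagree. Of 6 neutrophil markers 3 rose, with sums of 2.04 to 2.62 in MRL and of 5.39 to 11.8 in LPR, with a rise of 2.28 for S100a9 and a log2 change of 0.37 for Ly6g that did not pass. The part of these cells in the rise of the 10 genes was not tested.

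Plasmacytoid dendritic cells are a major source of IFN-alpha, and by the brightest probes 1 of their 5 markers rose, Spib, which B cells also express (3.40 on the log2 scale, adjusted p = 2.12e-05). Siglech had a log2 change of -0.10 (adjusted p = 0.586). Pacsin1 had one of 0.14 (adjusted p = 0.524), and its dimmer probe (A_51_P220422) rose by 0.79 (adjusted p = 0.00455). The summed signal of the list was 103 to 122 in the MRL mice and 100.9 to 111 in the LPR mice, nearly all of it from 1 Siglech probe. The other 2 Siglech probes were above background on none of the 6 arrays, so the sum says little about these cells. The tested kidney markers were above background in all 6 mice. By their brightest probes, 2 of 6 proximal tubule markers, 1 of 6 distal nephron markers and 1 of 5 endothelial markers fell, and 0 of 5 podocyte markers passed in limma. The deepest fall was that of Calb1, a calcium-binding protein of the distal nephron, by -1.20 (adjusted p = 0.035), and -1.60 and -1.65 by its other probes. The podocyte marker Nphs1 had a log2 change of 0.69 (adjusted p = 0.078) with the LPR mice above the MRL mice, and one of -0.32 (adjusted p = 0.32) by its other probe. The proximal tubule endocytic receptor Lrp2 fell by 0.39 on the log2 scale (adjusted p = 0.0492), with -0.39 to -0.67 and no pass by its other 4 probes, and the endothelial VEGF receptor Kdr fell by 0.57 (adjusted p = 0.0317). Slc34a1, a phosphate transporter, had a log2 change of -0.30 (adjusted p = 0.216), Umod of -0.21 (adjusted p = 0.213), Slc12a1 of -0.57 (adjusted p = 0.0665), Emcn of -0.38 (adjusted p = 0.09) and Synpo of 0.08 (adjusted p = 0.785). The summed signals were 459 to 507 in MRL and 346 to 395 in LPR for the proximal tubule, 331 to 356 and 270 to 285 for the distal nephron, 16.2 to 17.4 and 11.9 to 13.9 for endothelium, and 19.1 to 21.8 and 20.0 to 25.8 for podocytes.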

How the data were processed

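TA used 1 single-colour Agilent array per kidney, 6 arrays of 1 slide, and the 2 groups were those of the sample labels. RNA was purified with the RNeasy Mini Kit per the labels, and with Trizol per the methods. The authors deposited spot intensities made with Feature Extraction 12.0.3.1 by subtracting the background and detrending the signal of each array, with probes placed on mm9. They also deposited a table of the same signal, scaled to a 75th percentile of 1 per array, used here as an alternative. From the intensities, log2 values were taken, the 75th percentile of all non-control spots of the array was subtracted, outlier spots were left out and spots of 1 probe were averaged. Probes well above background on at least 3 of 6 arrays were tested with limma 3.58.1 in R 4.3.3 (lmFit and eBayes, no covariate, Benjamini-Hochberg adjustment over all tested probes, threshold 0.05). A filter of this kind keeps probes bright in 1 group only. The number of arrays limits the precision. A lower bound compares the LPR mean with MRL signals of which each was set no lower than the dimmest probe of its array that counted as well above background.

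The genes, lists and tests were chosen with earlier results of these data known. Named genes were the 10 members with all probes, Fas, and of each pathway list the largest rise, the largest fall and the smallest change, with every gene of lists of at most 6. Others were the 2 brightest markers of each cell type and the 5 genes nearest to the mean profile. Spib, Ms4a1, Calb1, Nphs1, Oas3 and Tnfrsf17 fall outside this rule and were named after their values were seen. Some genes that the rule names are not reported here but are included in the counts. Of the 17 probes, 14 were matched to RefSeq by accession, all to the same symbol. Sequences are from RefSeq (GRCm38.p6). The steps were tested on simulated data. Alternatives were normexp with an offset of 50, a percentile over detected probes, a median shift, quantile normalization, the authors' divided signal, a floor, outlier spots kept, other filters, an intensity trend, slide column or replicate number in the fit, the methods' test, the mean of the probes and leaving out each mouse.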

Additional observations from a re-analysis of the deposited data

How the results depend on the processing

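Of the 10 genes, 5 to 7 rose under each of the 21 alternatives, and Isg15, Usp18, Bst2 and Xaf1 kept their calls in all 21 and Mx1 in the 20 that tested it. The call of Mx2 was lost in 9. The median log2 change of the 10 genes was 0.58 with normexp, 0.59 with the filter on all 6 arrays (where Mx1 was not tested and 5 of the probes rose) and 0.87 with the slide column in the fit. The sign of Rsad2 turned with the percentile over detected probes (0.0085), with the slide column (0.13), without MRL 1 (0.13) and without LPR 2 (0.23), and leaving out 1 mouse gave -0.20 to 0.23. Over the whole array, the number of probes lower in LPR moved most. Against 2462, it was 4448 with normexp, 1093 without the filter, and 1386 with the methods' test after adjustment and 7176 before it. Without 1 mouse it was 760 to 2269, with 1503 or fewer unless LPR 2 was the mouse left out. When the probes of a gene were averaged, 1604 genes were lower, against 1411 genes by the brightest probe. With the slide column in the fit, 1458 probes were higher and 463 lower, and 36 genes of the pathway lists rose. With the methods' test after adjustment, 1736 probes were higher and 38 genes of those lists rose, against 2606 and 58. The cause of these moves was not tested.

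The replicate numbers were not taken to pair the mice. Same-numbered mice correlated in their deviations from the group means by 0.115, 0.02 and 0.005 over probes. The best correlation with another number was -0.044, 0.042 and 0.051. With 3 mice per group these values cannot settle whether the mice were paired. With the replicate number as a block, 5 of the 10 genes rose, 2199 probes were higher and 1117 were lower. Signals near background limit what Mx1 and the dim second probes can show.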

Other observations

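The 5 genes outside all lists whose profile over the 6 mice lay nearest to the mean profile of the 10 genes were Fscn1, C1s1, Npas4, Sp140 and C1s2, among 23163 genes above background on all 6 arrays. The measure was the root mean square difference of log2 signals, each minus the mean of the MRL mice, and it was 0.06 to 0.07 for these 5. Fscn1, the actin-bundling protein fascin, rose by 1.04 on the log2 scale (adjusted p = 0.000718). C1s1 and C1s2, which encode the complement protease C1s, rose by 0.96 (adjusted p = 0.00259) and 1.00 (adjusted p = 0.00237), and as near-identical copies they may share signal. Npas4, a transcription factor known from neurons, rose by 0.99 (adjusted p = 0.00204), and Sp140, a nuclear body protein, by 1.09 (adjusted p = 0.000932). Of the 10 genes themselves, Xaf1 was nearest to their mean profile with a difference of 0.10, and Mx1 was farthest with 1.60. The mean profile includes Mx1, whose log2 change was 3.21, or 1.06 with normexp, while the median log2 change of the 10 genes was 0.78. The nearest genes to a profile without Mx1 were not sought. The 5 genes were picked for their likeness to the mean profile, so their changes are a description.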
